A study of Mus musculus with 8 samples.

Results

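*Mybl1*, *Tcfl5*, *Btbd18* and *Pou5f2* were followed in RNA from pachytene spermatocytes, as 4 of the 21058 genes in the deposited tables. They were found by their gene identifiers, mapped to mouse symbols through RefSeq. *Mybl1*, *Tcfl5* and *Btbd18* were listed as regulators of the pachytene programme, while *Pou5f2* was chosen by its count difference between the genotypes in these same libraries, so the levels of the 4 genes are described below without a test. The series compared 4 *Arid1a* WT libraries with 4 *Arid1a* cKO libraries of Sta-Put purified cells, a method that sorts a testis cell suspension by sedimentation at unit gravity. *Arid1a* cKO males were *Arid1a* fl/fl with 1 copy of *Stra8-Cre*, and WT males carried the floxed allele on 1 or both chromosomes without Cre, so floxed *Arid1a* was shared by both genotypes. The floxed allele was kept on a CD1 background, and cells came from testes of adult males pooled for each purification. The transgene is expressed from spermatogonia onward, its excision was incomplete, and some *Arid1a* cKO spermatocytes therefore still held ARID1A, a subunit of the BAF chromatin remodelling complex. Fractions were judged by light microscopy.

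Pachynema is the stage of meiosis I at which homologous chromosomes are fully paired and a large set of germ cell genes is switched on. MYBL1, also called A-MYB, binds DNA through MYB repeats and activates meiotic genes and the precursors of pachytene piRNAs, the small RNAs that guide PIWI proteins. TCFL5 is a basic helix-loop-helix factor of spermatocytes that acts with MYBL1, BTBD18 is a nuclear factor that promotes transcription elongation at a set of pachytene piRNA loci, and POU5F2 is a testis POU-domain protein related to OCT4.

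Estimated counts summed to between 15850961 and 22044507 per library. *Arid1a*, the targeted gene, was measured at 113 ± 13.8 CPM (counts scaled to a common total after TMM, SD, n = 4) in WT and at 79.7 ± 2.89 CPM in *Arid1a* cKO, or 70.3% of the WT level, and the genotypes did not overlap. The quasi-likelihood test of edgeR, adjusted over all genes tested, gave a log2 fold change of -0.51 with a standard error of 0.07 and an adjusted p of 2.3e-05. These gene-level counts do not separate the floxed *Arid1a* transcript from the excised form. In the paper's RT-PCR, *Arid1a* cKO pachytene spermatocytes held both, and more of the excised form. Replicate libraries of 1 genotype differed by more than counting noise, but nothing in the labels says whether they came from separate purifications, so p-values measure the spread between these libraries. Among all 17643 genes tested, 74% were called at an adjusted p of 0.05 or less, 37.5% lower and 36.5% higher in *Arid1a* cKO, and counts of called genes are to be read beside these shares. Markers of other cell types also moved. Of 14 spermatid markers, 14 were higher in *Arid1a* cKO, with summed levels of 2318 to 2555 CPM in WT and 10655 to 10869 CPM in *Arid1a* cKO. All 7 Sertoli markers were lower, from 440 to 501 CPM in WT to 126 to 130 CPM in *Arid1a* cKO, and so were all 5 Leydig markers, from 54.1 to 57.0 CPM to 6.51 to 6.84 CPM. The 8 pachytene markers split into 2 higher, 5 lower and 1 not called, and their sum was 9591 to 11155 CPM in WT and 7496 to 8151 CPM in *Arid1a* cKO. The 8 spermatogonial markers split into 6 higher and 1 lower, but their sum was lower, at 173 to 178 CPM in WT and 146 to 154 CPM in *Arid1a* cKO. The 6 leptotene and zygotene markers split into 4 higher and 2 lower, with sums of 174 to 211 CPM in WT and 219 to 229 CPM in *Arid1a* cKO. Of 7 macrophage and blood markers in the tables, 5 were higher and 1 lower, with sums of 5.12 to 6.19 CPM in WT and 11.4 to 14.0 CPM in *Arid1a* cKO, and both peritubular markers were higher. In these bulk samples, fewer cells of a type and less RNA per cell cannot be told apart, and the part of these markers in the results below was not tested. The paper reports that spermatocytes without ARID1A arrested at mid-pachynema. In its spreads from younger males, *Arid1a* cKO had a larger share of mid-pachytene cells and a smaller share of diplotene cells than controls. A difference in substage between the genotypes therefore cannot be told apart here from a difference within a stage.

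Promoter sequences are shown because MYBL1 is itself among the 4 factors. The 250 bases before the transcription start given in RefSeq's promoter table (GRCm38.p6) were taken for 3 of the genes, on the strand of the gene. They are chr2:180642692-180642941 on the minus strand for *Tcfl5*, chr2:84658829-84659078 on the plus strand for *Btbd18*, and chr13:78024652-78024901 on the plus strand for *Pou5f2*. The start used for *Btbd18* lies inside its gene record, so the last 7 bases of that window are within the record given below, while the other windows end at theirs. *Mybl1* had no entry. Capitals mark matches on either strand to a MYB consensus form (CAAC or TAAC followed by TG or GG) or, in *Btbd18*, to TGACG, the core of the cAMP response element that factors such as CREM recognise.
Tcfl5: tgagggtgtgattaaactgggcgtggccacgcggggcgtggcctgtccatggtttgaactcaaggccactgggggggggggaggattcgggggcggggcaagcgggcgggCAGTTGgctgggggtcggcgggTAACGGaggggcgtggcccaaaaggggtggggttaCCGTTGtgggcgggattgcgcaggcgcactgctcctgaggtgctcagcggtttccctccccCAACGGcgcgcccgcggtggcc
Btbd18: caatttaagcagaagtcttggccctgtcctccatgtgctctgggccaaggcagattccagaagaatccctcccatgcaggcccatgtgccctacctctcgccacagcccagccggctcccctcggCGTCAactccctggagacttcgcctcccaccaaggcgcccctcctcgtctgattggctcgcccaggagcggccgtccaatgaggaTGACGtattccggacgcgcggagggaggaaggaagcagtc
Pou5f2: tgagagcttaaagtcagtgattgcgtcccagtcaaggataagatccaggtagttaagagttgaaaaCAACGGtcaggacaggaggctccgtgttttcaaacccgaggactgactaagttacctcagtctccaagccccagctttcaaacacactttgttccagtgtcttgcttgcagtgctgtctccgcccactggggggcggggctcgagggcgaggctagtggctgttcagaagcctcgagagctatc

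The *Tcfl5* window held 4 MYB forms, whose first bases lie at positions -140, -118, -83 and -22 counted back from the base before the start of the promoter table. Of 32851 promoters of this length, 26 (0.0791%) held at least 4 forms and 23.7% held at least 1. The *Pou5f2* window held 1 form, at -184, and the *Btbd18* window held none. *Btbd18* instead had 2 TGACG cores, at -125 and -40, a number that 3.9% of all promoters reached. The record of the neighbouring gene *Ctnnd1* ends at 84658977, inside this window, and the core at -125 lies within that record. None of the 3 windows held the E-box form CACGTG (6.02% of promoters), and other forms of the E-box were not searched. Nor did any hold an octamer (ATGCAAAT, 1.6%), which POU proteins bind, or a full cAMP response element (TGACGTCA, 1.55%). A match of letters is not a measured binding site.

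*Pou5f2* (gene 75507, chromosome 13 from 78024902 to 78026296, GRCm38.p6) has 1 annotated transcript of 1394 bases in 1 exon. Its transcript abundance in WT was 137, 156, 139 and 155 TPM (a share of all transcripts, scaled for transcript length) in replicates 1 to 4. In *Arid1a* cKO it was 5.67, 7.02, 6.41 and 6.85 TPM. The groups lay far apart, since the lowest WT library had 19.6 times the TPM of the highest *Arid1a* cKO library. On the CPM scale the level went from 126 ± 9.98 to 6.10 ± 0.509 (SD, n = 4), so 4.86% of the WT level was left, a 20.6-fold difference with a log2 fold change of -4.37 (standard error 0.08). The estimated counts behind these values were 2270 to 3007 in WT and 100 to 125 in *Arid1a* cKO. Ranked by mean TPM among all genes listed, *Pou5f2* stood at place 1243 in WT and at place 8702 in *Arid1a* cKO.

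*Mybl1* (gene 17864, chromosome 1 from 9667407 to 9700439) encodes the MYB factor of the set. Its level in WT was 62.4, 66.2, 59.2 and 55.8 TPM. In *Arid1a* cKO it was 22.0, 25.9, 28.7 and 24.5 TPM, and every *Arid1a* cKO library lay below every WT library. The mean of the 4 libraries was 60.9 ± 4.46 TPM in WT and 25.3 ± 2.81 TPM in *Arid1a* cKO. The CPM level in *Arid1a* cKO was 40.5% of that in WT, with a log2 fold change of -1.30 (standard error 0.06).

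*Tcfl5* (gene 277353, chromosome 2 from 180621956 to 180642691) was the most abundant of the 4 per transcript length. It reached 377, 397, 357 and 389 TPM in WT and 237, 253, 250 and 240 TPM in *Arid1a* cKO, again without overlap. Its CPM level in *Arid1a* cKO was 70.9% of that in WT, with a log2 fold change of -0.50 (standard error 0.05), and the log2 difference in TPM was -0.63 (standard error 0.04). For comparison, 70.3% of the *Arid1a* CPM remained in the same libraries, with floxed and excised transcripts counted together. The 3' end of *Tcfl5* overlaps *Col9a3*, a collagen gene on the opposite strand, over 234 of its 3166 exonic bases (7.39%), and 9.29% of the 31-base words of its longest transcript are shared with that gene. Whether counting used strand is not given in the sources used here. *Col9a3* had 2.77 ± 0.747 CPM in WT and 6.34 ± 0.326 CPM in *Arid1a* cKO. On the same count scale, *Tcfl5* had 537 ± 35.6 and 381 ± 9.19 CPM.

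*Btbd18* (gene 100270744, chromosome 2 from 84659072 to 84668789) was the least abundant in WT and differed in direction from the other 3. Its level was 2.69, 3.50, 3.66 and 3.24 TPM in WT. In *Arid1a* cKO it was 4.95, 5.12, 6.48 and 6.24 TPM, so that all 4 libraries lay above the WT libraries. Estimated counts were 72 to 89.0 in WT and 123 to 184 in *Arid1a* cKO, which makes this the least precise of the 4 differences. The CPM level went from 3.95 ± 0.279 to 7.89 ± 0.855 (SD, n = 4), with a log2 fold change of 1.00 (standard error 0.11). On the log2(TPM + 1) scale the difference was 0.65, and on log2 TPM without the added 1 it was 0.80. Across all genes tested, the libraries of the genotypes did not overlap at 68.9% of genes, so separation of all 4 factors is given here as a description.

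**Figure D1:**
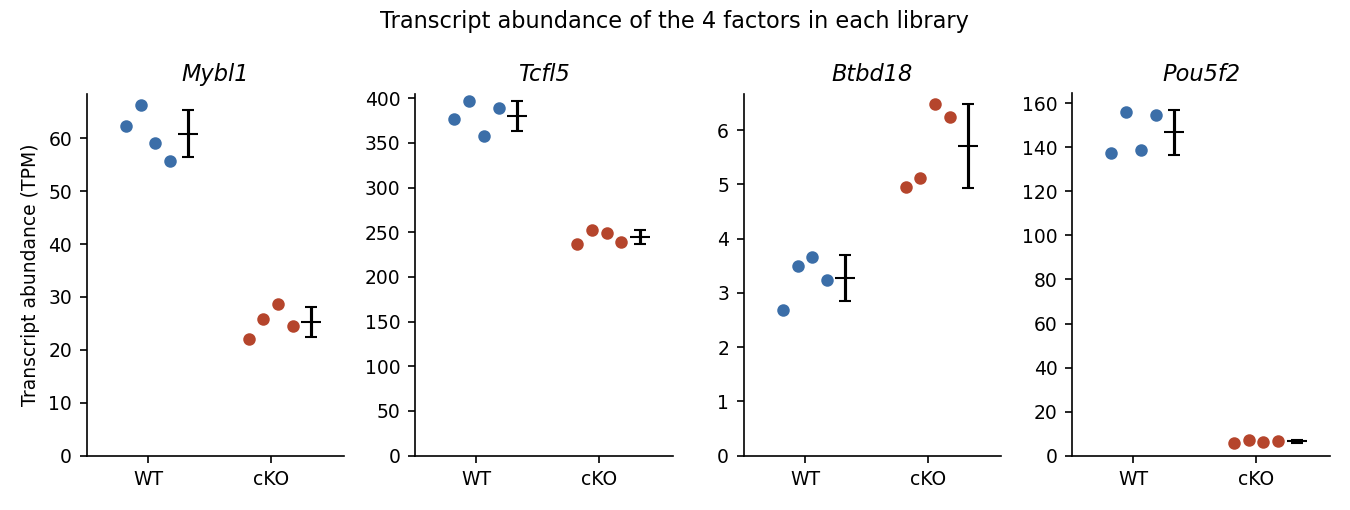
Transcript abundance (TPM, linear axes that start at 0 and differ between panels) of each of the 4 factors in the WT (blue) and cKO (red) libraries, with 1 point per library and the mean ± SD (n = 4) in black. The genotypes do not overlap in any panel, *Btbd18* is higher in cKO, and *Pou5f2* lies at 137 to 156 TPM in WT and 5.67 to 7.02 TPM in cKO.

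The order of the factors by TPM differed between genotypes. In WT it was *Tcfl5*, *Pou5f2*, *Mybl1* and *Btbd18*, and no library of a factor overlapped the range of its neighbour in that order. In *Arid1a* cKO it was *Tcfl5*, *Mybl1*, *Pou5f2* and *Btbd18*, and the last pair overlapped. The summed TPM of the 4 factors was 591 ± 27.8 in WT and 282 ± 10.6 in *Arid1a* cKO. *Pou5f2* made up 24.8% ± 0.812 of that sum in WT and 2.30% ± 0.174 in *Arid1a* cKO. *Tcfl5* made up 64.3% ± 0.599 and 86.7% ± 0.930, while the share of *Mybl1* was 10.3% ± 0.713 and 8.95% ± 0.707. Within a library, a ratio of TPM values does not depend on scaling between libraries. The ratio of *Pou5f2* to *Mybl1* was 2.42 ± 0.247 in WT and 0.258 ± 0.0247 in *Arid1a* cKO. The ratio of *Tcfl5* to *Mybl1* was 6.26 ± 0.480 in WT and 9.75 ± 0.860 in *Arid1a* cKO, and the ranges of both ratios were separate.

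**Figure D2:**
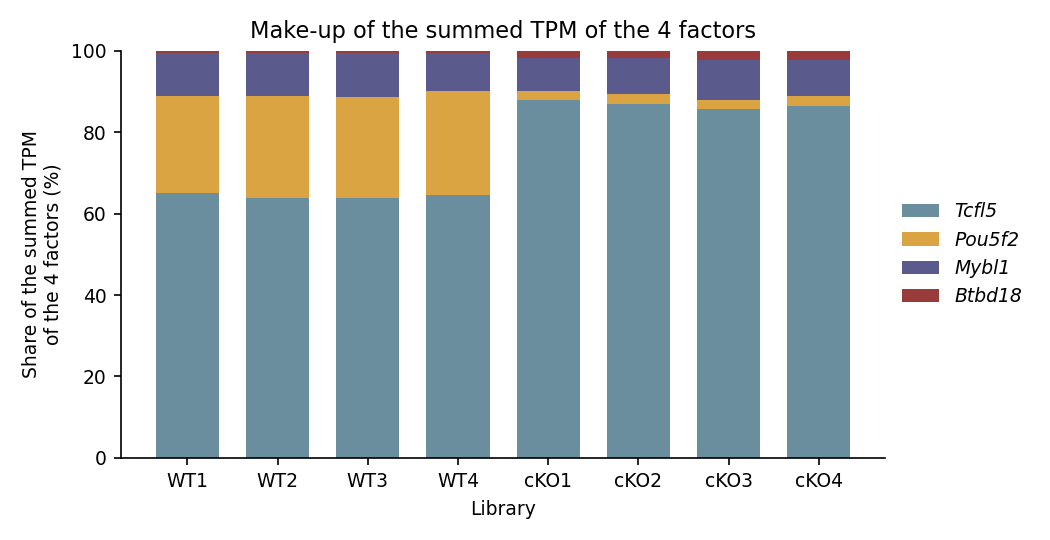
Share (%) of the summed TPM of the 4 factors that each contributed, stacked to 100 for each of the 8 libraries. *Pou5f2* holds 23.7% to 25.7% in WT and 2.10% to 2.47% in cKO, and *Tcfl5* takes up 85.7% to 87.9% in cKO.

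Dividing a gene's estimated counts by its TPM gives the effective transcript length that Salmon assigned, up to a factor shared by all genes of a library, and was compared after centring on the median of all genes in each library. This measure was not used to choose the genes. The relative length of *Mybl1* was 1.96 ± 0.0581 in WT and 1.82 ± 0.141 in *Arid1a* cKO (SD, n = 4), and this difference was within the spread (log2 difference -0.11, two-sided exact permutation test, p = 0.2, adjusted p = 0.2 over 4 genes). *Tcfl5* differed by 0.06 on the log2 scale, *Btbd18* by 0.12 and *Pou5f2* by 0.06, each with p = 0.0286, the smallest that 4 libraries against 4 allow in the exact permutation test, and an adjusted p of 0.0381. Over all genes tested the median size was 0.0674, and 66.5% of genes moved by more than *Tcfl5*, 32.8% by more than *Btbd18* and 69.5% by more than *Pou5f2*, which has only 1 annotated transcript. These 3 differences changed sign without the centring, to -0.08, -0.02 and -0.08, with adjusted p of 0.648 to 0.857 in the exact permutation test.

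The nearest protein-coding genes were followed to describe the surroundings of each factor. *Pou5f2* lies inside an intron of *Fam172a*, on the same strand and with no shared exonic base. *Fam172a* fell from 25.9 ± 0.370 to 12.7 ± 1.54 CPM (SD, n = 4). Its log2 fold change was -1.04 ± 0.08 (standard error, edgeR adjusted p = 1.48e-08), which was smaller in size than the -4.37 of *Pou5f2*. On 1 side, *2210408I21Rik* rose by 0.82 on the log2 scale and *Slf1*, a gene of the DNA damage response, fell by 0.46. On the other, *Nr2f1* had too few counts to be tested and *Arrdc3* fell by 0.87 on the log2 scale. Of the 4 tested neighbours of *Pou5f2*, 3 were lower and 1 higher, where 74% of all genes were called, 37.5% lower and 36.5% higher.

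Near *Mybl1*, all 4 neighbours fell, beside 37.5% of all genes tested, and their log2 fold changes were -1.17 for *Vxn*, -1.47 for *Adhfe1*, -0.63 for *Vcpip1* and -1.04 for *Sgk3*, a kinase gene. *Vxn* and *Adhfe1* were weakly expressed, at 2.51 and 0.893 CPM in WT, and were at -0.56 and -0.50 on the log2(TPM + 1) scale. At such low levels the added 1 shrinks a difference, and their mean TPM in *Arid1a* cKO was 40.7% and 30.4% of WT. *Tcfl5* had neighbours in both directions, with falls at *Mrgbp* (-1.82), which encodes a subunit of the TIP60 histone acetyltransferase complex, and *Ogfr* (-0.88) and rises at *Col9a3* (1.19) and *Gid8* (0.84), while *Dido1* had a log2 fold change of -0.06 (adjusted p = 0.368 from edgeR). *Btbd18* overlaps *Gm28635*, a GENCODE gene on the opposite strand that shares no exonic base with it and was not followed as a neighbour. By RefSeq records its nearest gene is *Ctnnd1*, which encodes p120 catenin, lies 95 bases away and fell by 0.83 on the log2 scale. *Tmx2* rose by 0.25 on the log2 scale, a call lost on the TPM scales (0.01), and *Tfpi* fell by 0.66, a call lost with DESeq2 and without WT replicate 1, WT replicate 3 or any cKO library (-0.68 to -0.49), while *Selenoh* had a log2 fold change of 0.03 (adjusted p = 0.807 from edgeR).

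**Figure D3:**
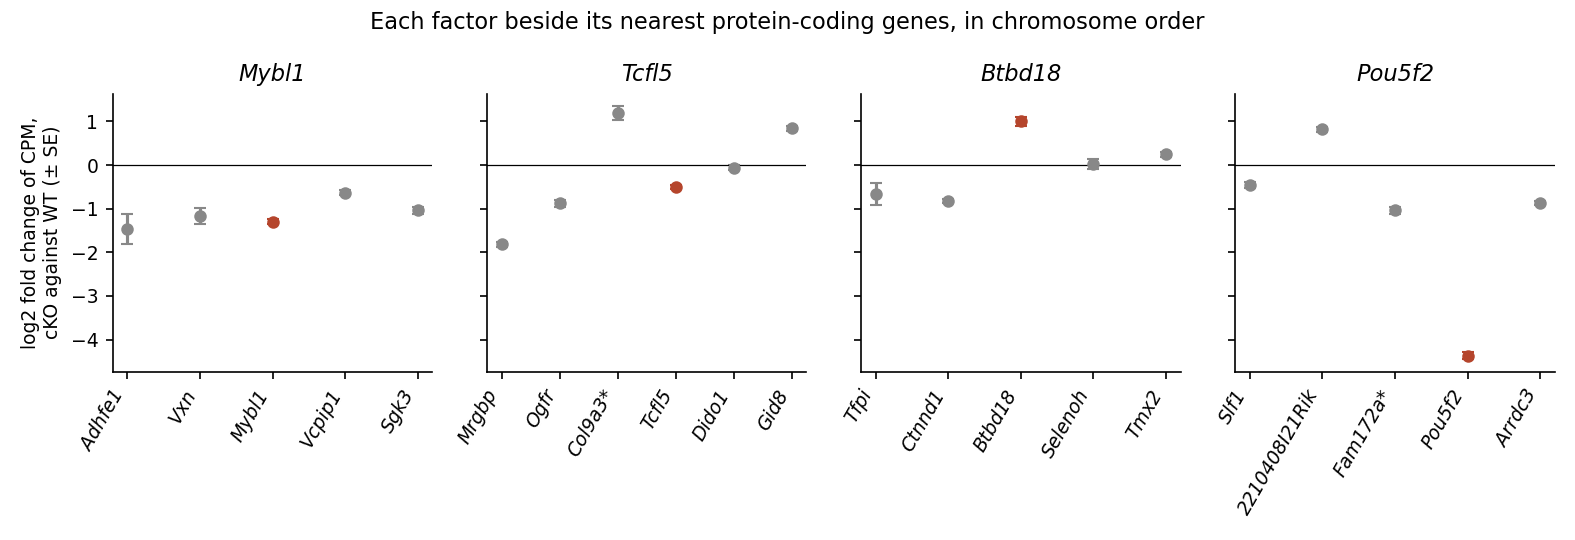
Log2 fold change of CPM (cKO against WT, ± standard error, n = 4 libraries per genotype) for each factor (red) and its tested neighbouring protein-coding genes (grey) in chromosome order, with genes that overlap the factor marked by an asterisk. The difference at *Pou5f2* (-4.37) is larger than those at its neighbours, and *Btbd18* (1.00) lies above its neighbours.

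The piRNA pathway is tied to MYBL1, TCFL5 and BTBD18. The genes listed for it encode proteins, and the piRNA loci at which BTBD18 acts are not among them. Of the 23 listed genes, 17 fell, 3 rose and 3 were not called, with a median log2 fold change of -1.13. Among all 17643 genes tested, 74% were called, 37.5% lower and 36.5% higher, and the median log2 fold change was -0.02. *Piwil1*, which encodes the PIWI protein of pachytene piRNAs, fell from 1597 ± 44.2 to 109 ± 3.16 CPM (-3.88 ± 0.05 on the log2 scale with its standard error, edgeR adjusted p = 1.39e-14, n = 4). *Tdrd5* and *Tdrd1*, Tudor-domain genes of piRNA production, fell by 3.12 and 2.74 on the log2 scale. Smaller falls reached *Tdrd6*, from 1637 ± 58.3 to 1301 ± 31.3 CPM, and *Rnf17*, whose direction depended on transcript length, at -0.26 on the CPM scale and 0.42 on the log2(TPM + 1) scale, both called. The 3 rises were those of *Gtsf1* (log2 fold change 1.12), which encodes a cofactor of PIWI slicing, *Tdrd7* (0.44) and *Mael* (0.37, and 0.24 on the log2(TPM + 1) scale). *Ddx4*, the germ cell helicase gene, had 719 ± 41.5 CPM in WT and 780 ± 31.7 CPM in *Arid1a* cKO and was not called, like *Fkbp6* and *Piwil4*. *Piwil1* is also 1 of the 8 pachytene markers.

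A list of 24 other genes of the pachytene programme did not move in 1 direction. All pachytene markers given above except *Piwil1* are also in this list, so the list and those markers are not independent. Of the 24 genes, 11 fell, 9 rose and 4 were not called, with a median log2 fold change of -0.08. Among all genes tested, 37.5% were lower and 36.5% higher. The largest falls were those of *Mlh3* (-2.28), a mismatch repair gene needed for crossovers, *Tesmin* (-1.88) and *Tex101* (-1.48). The largest rises were those of *Spag6* (2.85), *Pgk2* (1.50), a glycolytic gene of the male germ line, and *Sycp1* (0.83), whose product forms the transverse filaments of the synaptonemal complex. *Sycp3*, of the same complex, fell from 216 ± 19.9 to 137 ± 7.88 CPM. *Ybx2*, *Ddx25*, *Spata16* and *H1f6* were not called.

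The relatives of *Mybl1* and its partners were read next. MYB proteins can join the MuvB core, a complex of LIN proteins and RBBP4. Of 8 genes in this list, 4 fell and 2 rose, beside 37.5% and 36.5% of all genes tested. The median log2 fold change was -0.44, which lies between *Rbbp4* (-0.91) and *Myb* (0.03). That median depends on *Tesmin*, which is listed only as a relative of *Lin54*. *Lin52* fell from 41.1 ± 3.99 to 6.16 ± 0.389 CPM, a log2 fold change of -2.73, and *Lin9* fell by 1.64 on the log2 scale. *Tesmin*, a relative of *Lin54* and also in the pachytene list, and *Rbbp4* were the other falls. *Mybl2*, the MYB gene of dividing cells, rose from 14.4 ± 2.58 to 27.1 ± 1.54 CPM, and *Lin37* rose by 0.82 on the log2 scale. *Myb* stood at 0.203 ± 0.131 CPM in WT and 0.207 ± 0.105 CPM in *Arid1a* cKO, a level too low to show a difference, and *Lin54* was not called. *Mybl2* was therefore higher and *Mybl1* lower in the same libraries.

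For *Pou5f2*, 14 other POU genes were listed and 11 had enough counts to be tested. Of these, 4 were called lower and 3 higher, beside 37.5% and 36.5% of all genes tested, and the median log2 fold change was -0.07. *Pou6f1* fell from 125 ± 4.39 to 20.7 ± 0.661 CPM and *Pou2f2*, which encodes the lymphoid octamer factor OCT2, from 48.0 ± 6.62 to 6.28 ± 0.664 CPM. The calls of *Pou1f1* (adjusted p = 0.0487 from edgeR) and *Pou2f1* (0.0406) were at the threshold and their genotypes overlapped, so the number lower was 2 under 6 other normalizations, filters and scales, and *Pou2f1* was higher at 0.37 on the log2(TPM + 1) scale. Rises were seen at *Pou2f3* (2.43) and *Pou4f1* (1.34), both at under 4 CPM in either genotype. *Pou5f1*, which encodes OCT4, was at 1.19 ± 0.286 CPM in WT and 1.22 ± 0.170 CPM in *Arid1a* cKO (adjusted p = 0.922 from edgeR). Per transcript length, *Pou5f2* had the highest level of the family in WT, at 147 TPM, followed by *Pou6f1* at 51.9 TPM. In *Arid1a* cKO, *Pou2f1* at 14.7 TPM and *Pou6f1* at 8.08 TPM had higher means than *Pou5f2* at 6.49 TPM.

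Of 10 genes for helix-loop-helix factors and their partners, listed beside *Tcfl5*, 6 rose and 2 fell, with a median log2 fold change of 0.62. Across all genes tested, 36.5% were higher and 37.5% lower. *Bhmg1*, also named *Meiosin* and active at meiotic entry, rose from 3.95 ± 0.284 to 18.2 ± 0.583 CPM. *Stra8*, its partner at meiotic entry, rose from 12.9 ± 0.811 to 21.7 ± 0.518 CPM. *Sohlh2*, of differentiating spermatogonia, rose by 1.16 and *Tcf12* by 0.96 on the log2 scale. *Max* and *Tcf4* fell by 0.94 and 0.86 on the log2 scale, and *Tcf4* was at -0.35 on the log2(TPM + 1) scale. *Bhmg1* and *Sohlh1* are also on the marker lists of early spermatocytes and spermatogonia.

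Other regulators of pachytene and spermatid transcription were mostly higher. Of 14 such genes, 9 rose, 2 fell and 3 were not called, where 36.5% of all genes tested were higher and 37.5% lower. The median log2 fold change was 0.44. *Hsf2* rose from 29.9 ± 1.84 to 122 ± 11.5 CPM and *Taf7l*, an X-linked TFIID gene, from 23.2 ± 0.915 to 88.8 ± 0.744 CPM. *Rfx3* rose by 1.77, and *Sox30* and *Crem*, both needed for spermatid gene expression, by 1.09 and 1.08 on the log2 scale. *Dmrtc2* and *Kctd19* fell by 0.67 and 0.40 on the log2 scale. *Brdt* (375 ± 25.1 to 371 ± 16.2 CPM), *Rfx2* and *Hsf5* were not called. The 9 that rose had the direction of the 14 spermatid markers in the same libraries, and of 4 of the 6 leptotene and zygotene markers. *Prdm9*, which rose by 1.73 on the log2 scale, is also on that leptotene and zygotene list. The part of spermatids or of early spermatocytes in these rises was not tested.

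Genes of transcription elongation, the step at which BTBD18 acts, gave 11 falls and 5 rises among 16, with a median log2 fold change of -0.53. Of all genes tested, 37.5% were lower and 36.5% higher. *Cdk9*, which encodes the kinase of P-TEFb, fell from 79.2 ± 12.9 to 22.5 ± 0.981 CPM, and *Hexim1*, which encodes its inhibitor, from 26.8 ± 1.84 to 7.00 ± 0.583 CPM. *Nelfa*, of the pausing factor NELF, fell by 1.23 on the log2 scale. *Ell2*, which encodes an elongation factor, rose from 32.3 ± 1.94 to 154 ± 3.24 CPM, and *Ccnt1* and *Aff4* rose by 0.69 and 0.66 on the log2 scale. The difference at *Aff4* was 1.68 on the log2(TPM + 1) scale.

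**Figure D4:**
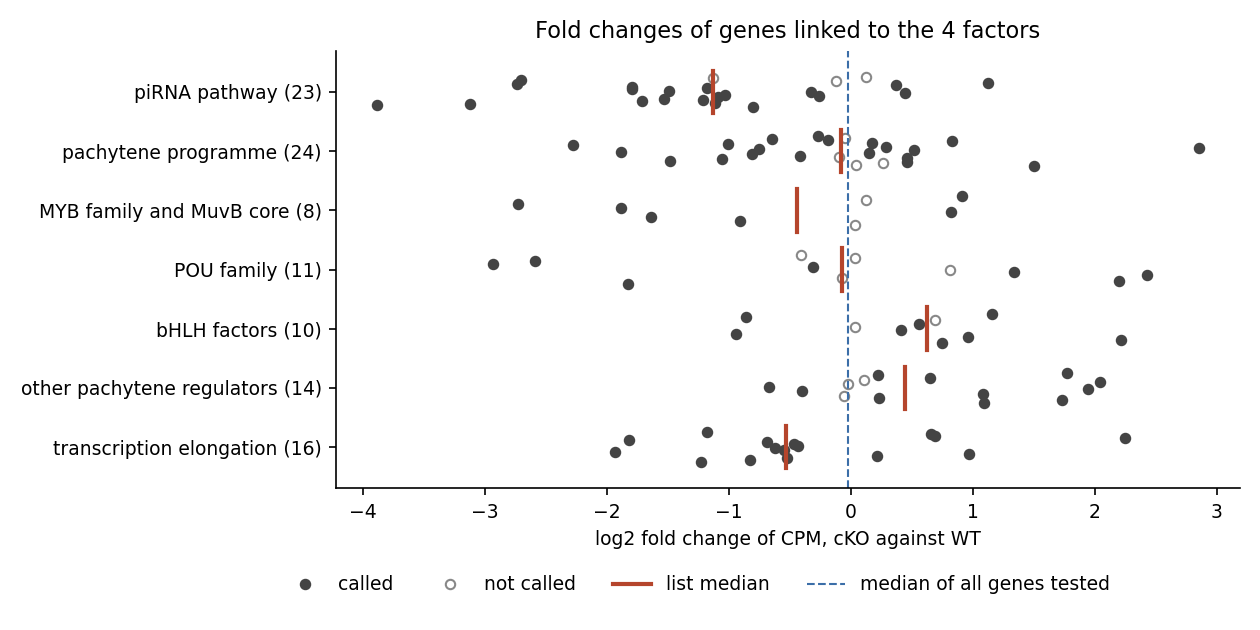
Log2 fold change of CPM (cKO against WT) of the tested genes in 7 lists linked to the 4 factors, with the number of genes tested in brackets, filled points for genes called at an adjusted p of 0.05 or less, open points for the others, and a red bar at each list's median. The dashed line is the median of all genes tested (-0.02), and the piRNA list has the lowest median (-1.13) and *Piwil1* (-3.88) the lowest value.

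The genes most alike in pattern were found by the root mean square difference of log2 CPM, centred on each gene's mean, over the 8 libraries and 12997 genes, which is a description. *Chst1* (0.187), *Fam13c* (0.215) and *Piwil1* (0.258) were nearest to *Pou5f2*, and *Chst1* had 133 ± 13.9 CPM in WT and 7.49 ± 0.736 CPM in *Arid1a* cKO. *Trim23* (0.033), *Rif1* (0.051) and *Mif4gd* (0.052) were nearest to *Mybl1*, and *Smurf2* (0.017), *Uhrf1* (0.021) and *Pik3r2* (0.024) to *Tcfl5*. *Dennd2c* (0.077), *Trmt10c* (0.079) and *Vcl* (0.081) were nearest to *Btbd18*.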

How the data were processed

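RNA-seq libraries of 4 *Arid1a* WT and 4 *Arid1a* cKO samples were grouped by the genotype in their labels, and every column of the tables was matched by genotype and number. The authors quantified 50 bp paired-end reads with Salmon, summed transcripts to genes with tximport (mm10), and deposited estimated counts and TPM. Another deposited table holds the authors' DESeq2 fold changes and p-values and was not used. Tool versions of the authors are not given in the sources used here.

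Estimated counts were rounded, and edgeR 4.0.16 in R 4.3.3 was run on genes that reached 10 counts over all 8 libraries (TMM, quasi-likelihood test, genotype as the only term, Benjamini-Hochberg adjustment, called at 0.05 or less). CPM values are those of the TMM-scaled libraries. The fit was first tested on simulated data. Of 21058 genes, 21036 had a RefSeq record (GRCm38.p6), which gave names and coordinates. Transcripts, overlaps and 31-base words were from GENCODE M21. Alternatives were run with DESeq2 1.42.0, limma 3.58.1 on log2(TPM + 1) and log2(TPM + 0.1), other scalings and filters, offsets for transcript length, the replicate number as a block, and each library left out in turn. Tables and plots used Python 3.11.15, pandas 2.3.3 and matplotlib 3.10.9.

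The 4 genes and the gene lists were chosen with earlier results of these data known. Named were the 4 genes, *Arid1a*, relatives by sequence, the host gene and the 2 nearest protein-coding genes on each side, the 3 genes most alike in pattern, and, of each list, the 3 called genes with the largest rise and the 3 with the largest fall among those whose average log2 CPM reached 1, with no overlap between genotypes. *Tdrd6*, *Rnf17*, *Sox30*, *Crem*, *Prdm9*, *Pou2f3*, *Sycp3*, *Stra8*, *Rbbp4*, *Sohlh1*, *Pou1f1*, *Pou2f1*, *Gm28635* and the genes given as not called were named after their values were seen. One gene that this rule names is not reported here. The ATAC-seq and CUT&RUN experiments were not analysed here.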

Additional observations from a re-analysis of the deposited data

Results flagged for a closer look

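In 12 of 148 groups of 4 libraries examined, 1 library lay far from the other 3, judged by its gap to the nearest value over the range of the group, and 7.4 such groups are expected if 1 in 20 is marked by chance. Of the 4 factors, only the estimated transcript length of *Tcfl5* (0.856, WT replicate 1 low at 0.956 against 0.965 to 0.967) and that of *Btbd18* (0.902, WT replicate 1 high at 0.865 against 0.814 to 0.819) were marked, and none of their levels. WT replicate 4 was apart at *Spag6* (0.895, 55.5 against 46.0 to 47.0 CPM), *Mybl2* (0.864, 10.6 against 15.4 to 16.1 CPM), *Tcf4* (0.84, 38.5 against 44.2 to 45.3 CPM) and *Dmrtc2* (0.863, 85.1 against 99.4 to 101.7 CPM). WT replicate 3 was apart at *Lin9* (0.838, 55.1 against 61.3 to 62.5 CPM), *Ell2* (0.969, 35.2 against 31.2 to 31.4 CPM) and *Smurf2* (0.849, 134.8 against 152 to 156 CPM). In *Arid1a* cKO, replicate 1 was high at *Hsf2* (0.956, 139.6 against 116 to 117 CPM), replicate 2 low at *Tmx2* (0.882, 52.5 against 56.2 to 56.8 CPM) and replicate 3 high at *Rif1* (0.909, 141 against 135.5 to 136 CPM). In each of these genes the genotypes still did not overlap.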

How the results depend on the processing

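The direction of all 4 factors held in every alternative run, and *Pou5f2* stayed between -4.48 and -4.30 on the log2 scale. Without TMM, *Mybl1* was at -1.40 and *Tcfl5* at -0.59, and the median of all genes moved to -0.118. With offsets for transcript length *Mybl1* was at -1.17. *Tcfl5* was at -0.63 with limma on either TPM scale, and *Btbd18* at 0.65 on log2(TPM + 1) and 0.78 on log2(TPM + 0.1). The other pachytene regulators called lower numbered 4 without TMM, against 2. POU genes called lower numbered 2, against 4, with DESeq2 size factors, autosomal TMM factors, filterByExpr, length offsets and both TPM scales, and 2 to 4 with 1 library left out, the change coming without WT replicate 3, cKO replicate 2 or cKO replicate 4. Without centring, log2 differences in estimated length were -0.08 for *Tcfl5*, -0.02 for *Btbd18* and -0.08 for *Pou5f2*. With 1 library left out they were 0.06 to 0.06, 0.09 to 0.14 and 0.06 to 0.06, and leaving out any cKO library raised the adjusted p of the exact permutation test to 0.0571 to 0.0762. Genes not called changed sign. *Myb* was at -0.07 without TMM and at -0.29 to 0.49 with 1 library left out. *Pou5f1* was at -0.07 without TMM, -0.01 with length offsets, -0.06 and -0.09 on the TPM scales and -0.08 to 0.15 with 1 library left out. *Selenoh* was at -0.07, -0.02, -0.11 and -0.12 under the same settings and at -0.04 to 0.10 with 1 library left out. *Tfpi* was not called with DESeq2 (-0.63) or without WT replicate 1, WT replicate 3 or any cKO library. *Tmx2* was not called with length offsets (0.11) or on the TPM scales (0.01), nor *Dennd2c* on the TPM scales (0.25 and 0.34), and *Dido1* was called without TMM (-0.16). With length offsets and on the TPM scales *Aff4* was between 1.68 and 1.81, against 0.66, and *Tcf4* between -0.38 and -0.28, against -0.86. The causes were not tested. With the replicate number as a block (replicate block), 6429 genes were higher and 6671 lower, against 6435 and 6613, *Pou5f2* was at -4.36, and the pachytene list had 10 genes lower, against 11. Deviations of same-numbered libraries correlated at 0.162, 0.0125, 0.0852 and -0.138, within the range of differently numbered libraries (-0.197 to 0.187). These values cannot settle whether the numbers pair the samples, and the labels do not say. The replicate block changed no other count of calls in the lists. *Btbd18* rests on the fewest counts of the 4 factors, which limits its precision.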

Other observations

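Promoters with MYB forms were compared over all genes tested, as a description. Of 10447 genes without a form in the 250 bases before their start, 37.8% were lower and 36.4% higher in *Arid1a* cKO. Of 2992 genes with 1 form, 37.5% were lower and 38.1% higher. Of 431 genes with 2 forms, 41.5% were lower and 36.2% higher, and of 55 genes with 3 or more, 30.9% were lower and 43.6% higher. A form was held by 8 of 18 piRNA list genes with a promoter entry, by 8 of 20 genes of the pachytene list and by 3478 of 13925 genes tested.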
